A study of Rattus norvegicus with 24 samples.

Results

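The genes described here are 9 regulators of p53 signalling, cell cycle arrest and senescence (Mdm2, Cdkn1a, Cdkn1b, Cdkn1c, Cdkn2a, Cdkn2b, Cdkn2c, Gdf15 and Ccng1), followed in the kidneys of rats with polycystic kidney disease. They were chosen by name for their known roles, not by a rule on their values, out of 17334 genes in the files. Earlier results of these data were known when they were chosen. All 9 were found and all 9 passed the filter on low counts, which left 12778 genes to test. The whole left kidney was sequenced in 24 rats of the PKD/Mhm (Cy/+) line, all males aged 8 months, 6 in each of 4 groups. The study describes all animals as heterozygous for the Cy mutation of Anks6, which causes the cysts. Its methods separate them from non-cystic animals by abdominal palpation and describe no genotyping. Each comparison was therefore meant to lie within the disease, and no group of healthy kidneys was included. Ctrl animals were untreated. Animals of the groups i.p. ABCB5+ and i.v. ABCB5+ received 2000000 human skin-derived ABCB5+ stromal cells a month for 6 months, into the abdominal cavity or into a vein. The CoCM group received, over the same months, cell-free medium from a co-culture of these cells with stimulated macrophages derived from THP-1, a human monocytic line. The series' own text gives the route of CoCM as intraperitoneal and the study's methods give it as intravenous. Ctrl animals carry the numbers 1 to 24 and treated animals the numbers 26 to 43, so treatment and order of numbering cannot be told apart.

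The transcription factor p53 is stabilised by DNA damage and other stress and switches on genes that halt the cell cycle. Mdm2 encodes the ligase that marks p53 for destruction and is itself induced by p53, which closes a feedback loop. Cdkn1a (p21), Cdkn1b (p27) and Cdkn1c (p57) form the Cip/Kip family of inhibitors, which bind complexes of a cyclin and a cyclin-dependent kinase (CDK). Cdkn2a, Cdkn2b (p15) and Cdkn2c (p18) form the INK4 family, which binds CDK4 and CDK6 and keeps the retinoblastoma protein RB active. Cdkn2a yields both p16, a common marker of senescent cells, and ARF, which inhibits Mdm2. In injured and cystic kidneys, p21 and p16 are used as markers of tubule cells that have left the cell cycle for good, and such cells release a set of cytokines and proteases known as the secretory phenotype.

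Upstream sequences were taken from the RefSeq table of the rat assembly GRCr8, which held windows for 8 of the 9 genes. Cdkn1c had no entry. The 250 bases before the annotated start were searched on both strands for the p53 response element, here a direct pair of p53 decamers with at most 1 of its 20 bases off the consensus. Of 33469 such windows of the whole table, 15 (0.0448%) held it, and these belonged to 13 genes, of which 6 were tested. Cdkn1a and Ccng1 were among them. Another was Gtse1, a G2-phase gene known as a target and inhibitor of p53. In Cdkn1a the element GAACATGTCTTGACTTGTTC began at position -201 from the start, and in Ccng1 the element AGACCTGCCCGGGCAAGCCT began at position -242. The allowance of 1 base was set after the Cdkn1a window had been read. The windows of Cdkn1a (chr20:7150682-7150931, plus strand) and Ccng1 (chr10:25684877-25685126, minus strand) are shown because they carry this element, and those of Cdkn2a (chr5:109107957-109108206, minus strand) and Cdkn2b (chr5:109134856-109135105, minus strand) because these genes, separated by 1 other coding gene model on chromosome 5, were the members that varied most together. Capitals mark the p53 element, the letters CCAAT and the letters GGGCGG (the core of a GC box), in either orientation.
Cdkn1a: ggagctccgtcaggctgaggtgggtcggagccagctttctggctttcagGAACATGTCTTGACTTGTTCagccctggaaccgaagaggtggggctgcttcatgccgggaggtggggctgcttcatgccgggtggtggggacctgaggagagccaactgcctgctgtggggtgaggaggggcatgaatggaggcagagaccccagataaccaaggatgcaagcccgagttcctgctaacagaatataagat
Ccng1: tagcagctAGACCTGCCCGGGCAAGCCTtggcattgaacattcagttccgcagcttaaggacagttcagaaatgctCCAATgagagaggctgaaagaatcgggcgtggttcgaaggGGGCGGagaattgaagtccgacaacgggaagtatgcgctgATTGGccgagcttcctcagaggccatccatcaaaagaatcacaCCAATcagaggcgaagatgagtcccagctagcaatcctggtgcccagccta
Cdkn2a: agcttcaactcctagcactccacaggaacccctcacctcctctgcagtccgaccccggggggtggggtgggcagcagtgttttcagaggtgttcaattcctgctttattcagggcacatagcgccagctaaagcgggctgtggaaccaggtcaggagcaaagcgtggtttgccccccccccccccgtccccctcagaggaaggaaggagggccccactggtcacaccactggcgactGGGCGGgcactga
Cdkn2b: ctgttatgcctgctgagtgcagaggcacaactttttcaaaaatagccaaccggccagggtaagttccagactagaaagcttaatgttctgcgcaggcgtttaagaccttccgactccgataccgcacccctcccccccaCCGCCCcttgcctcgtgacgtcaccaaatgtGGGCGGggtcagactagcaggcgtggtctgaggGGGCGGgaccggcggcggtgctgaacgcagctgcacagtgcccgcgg
The Cdkn2a window held 1 match of GGGCGG and the Cdkn2b window 3, and 30.5% of all windows held at least 1. The Ccng1 window held 3 matches of CCAAT, found in 34% of all windows. No window of the 8 genes held TTTGGCGC, TTTCCCGC, TTTGCCGC or TTTCGCGC, forms of the site bound by E2F factors, which 1.73% of all windows held. The submitters' processing notes name the build rn6, so the GRCr8 coordinates are not those of the counted transcripts.

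Estimated counts summed to between 9304601 and 14125442 per kidney. At this depth 3 counts, taken as the floor of detection, corresponded to 0.322 CPM (counts per 1000000 counts of the library) in the smallest library. The CPM values of genes and of sums below were further scaled by TMM. Of the 24 libraries, 4 (CoCM animal 39, i.p. ABCB5+ animal 38 and i.v. ABCB5+ animals 36 and 37) stood apart on the first principal component of all genes, with scores of 80.8 to 97.4 against -53.0 to 11.5 in the other 20. No Ctrl library was among them. The summed level of 7 markers of injured tubules (Havcr1, Lcn2, Spp1, Vcam1, Sox9, Krt20 and Clu) was 682 to 1226 CPM in these 4 libraries and 8244 to 16051 CPM in the other 20, with Krt20 under 3 counts in 17 libraries. T cell markers summed to 9.79 to 30.8 CPM against 76.3 to 183 CPM, and macrophage markers to 51.9 to 155 CPM against 250 to 716 CPM. Podocyte markers, which mark the kidney's filter, were present in every library, with sums of 408 to 1357 CPM. The differences of the members and the medians of the lists from Ctrl are given with and without these libraries.

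Per transcript length, the 9 genes spanned a wide range of levels. Gdf15, Ccng1 and Cdkn1b stood highest, with means over the 24 kidneys of 97.1 ± 21.1, 94.2 ± 7.53 and 90.2 ± 12.5 TPM (SD, transcripts per 1000000 transcripts). In Ctrl alone the means were 101 TPM for Ccng1, 94.3 TPM for Cdkn1b and 88.3 TPM for Gdf15, which was above Ccng1 in 1 of 6 kidneys. Over all kidneys Gdf15 was above Ccng1 in 11 of 24 kidneys and Ccng1 above Cdkn1b in 14, so the order of these neighbours was not set beyond their spread. Cdkn1c followed at 72.7 ± 17.7 TPM and Cdkn1a at 52.9 ± 14.6 TPM, and Cdkn1b exceeded Cdkn1c in 20 kidneys. Mdm2 was at 36.1 ± 5.03 TPM and below Cdkn1a in 23 kidneys. The INK4 genes were lowest, with Cdkn2c at 20.7 ± 5.16 TPM, Cdkn2b at 6.32 ± 3.66 TPM and Cdkn2a at 3.74 ± 3.21 TPM. Mdm2 exceeded Cdkn2c in all 24 kidneys, Cdkn2c exceeded Cdkn2b in all 24, and Cdkn2b exceeded Cdkn2a in 23. The plot of levels per transcript length shows this order and the low INK4 values in the 4 libraries that stood apart.

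**Figure D1:**
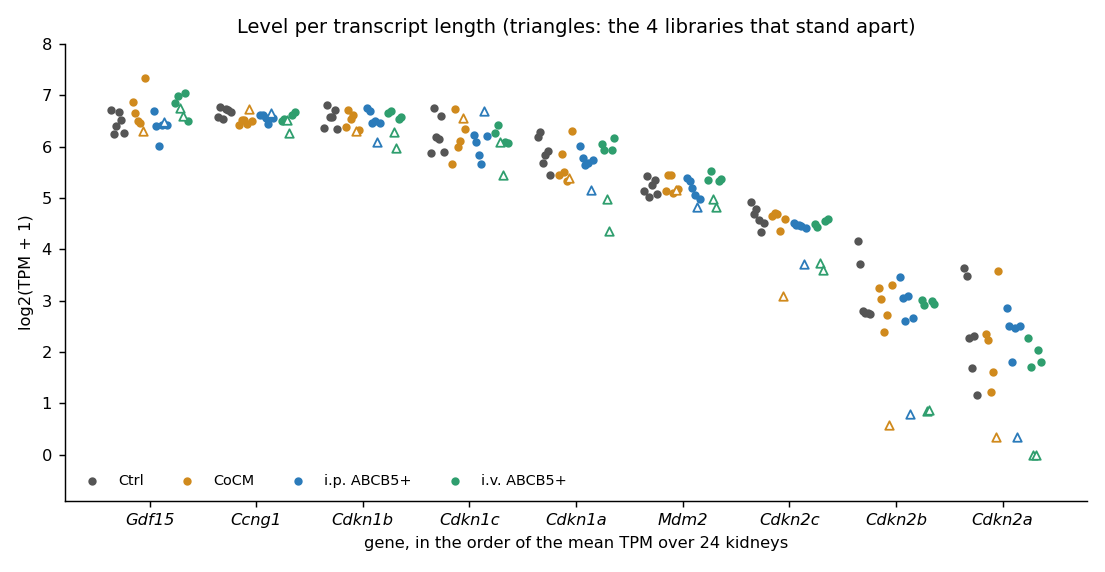
Level of each gene as log2(TPM + 1) in each of 24 kidneys, with genes in the order of their mean TPM and colours for the 4 groups. Triangles are the 4 libraries that stood apart, which hold the lowest values of Cdkn2c, Cdkn2b and Cdkn2a.

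No member passed an adjusted p of 0.05 in any of the 5 comparisons (edgeR quasi-likelihood test, Benjamini-Hochberg over all genes tested). The genes called over the whole table were nearly as scarce, with 1 gene, Ovca2, named after its value was seen, higher in CoCM against Ctrl (0.00783% of those tested) and none (0%) with i.p. or i.v. ABCB5+ against Ctrl, i.p. against i.v. ABCB5+ or CoCM against the mean of the cell groups. At an unadjusted p under 0.05 the shares were 11.9% with CoCM, 1.77% with i.p. ABCB5+ and 5.78% with i.v. ABCB5+ against Ctrl, 2.14% between the routes and 7% for CoCM against the cell groups. In this fit Gdf15 was the only member below that level, for CoCM and i.v. ABCB5+ against Ctrl and for i.p. against i.v. ABCB5+. No member had groups without overlap, which 1.38% of genes had in CoCM against Ctrl, 0.047% with i.p. and 0.11% with i.v. ABCB5+ against Ctrl, 0.0626% between the routes and 0.0391% for CoCM against the cell groups. With DESeq2 the counts of called genes were 79, 1, 1, 2 and 3 in the 5 comparisons in this order, and with limma voom and sample weights 183, 0, 0, 0 and 2. No member was among them. The 3 comparisons with Ctrl share the same 6 control animals. In whole tissue, fewer cells of a type and less RNA per cell cannot be told apart.

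**Figure D2:**
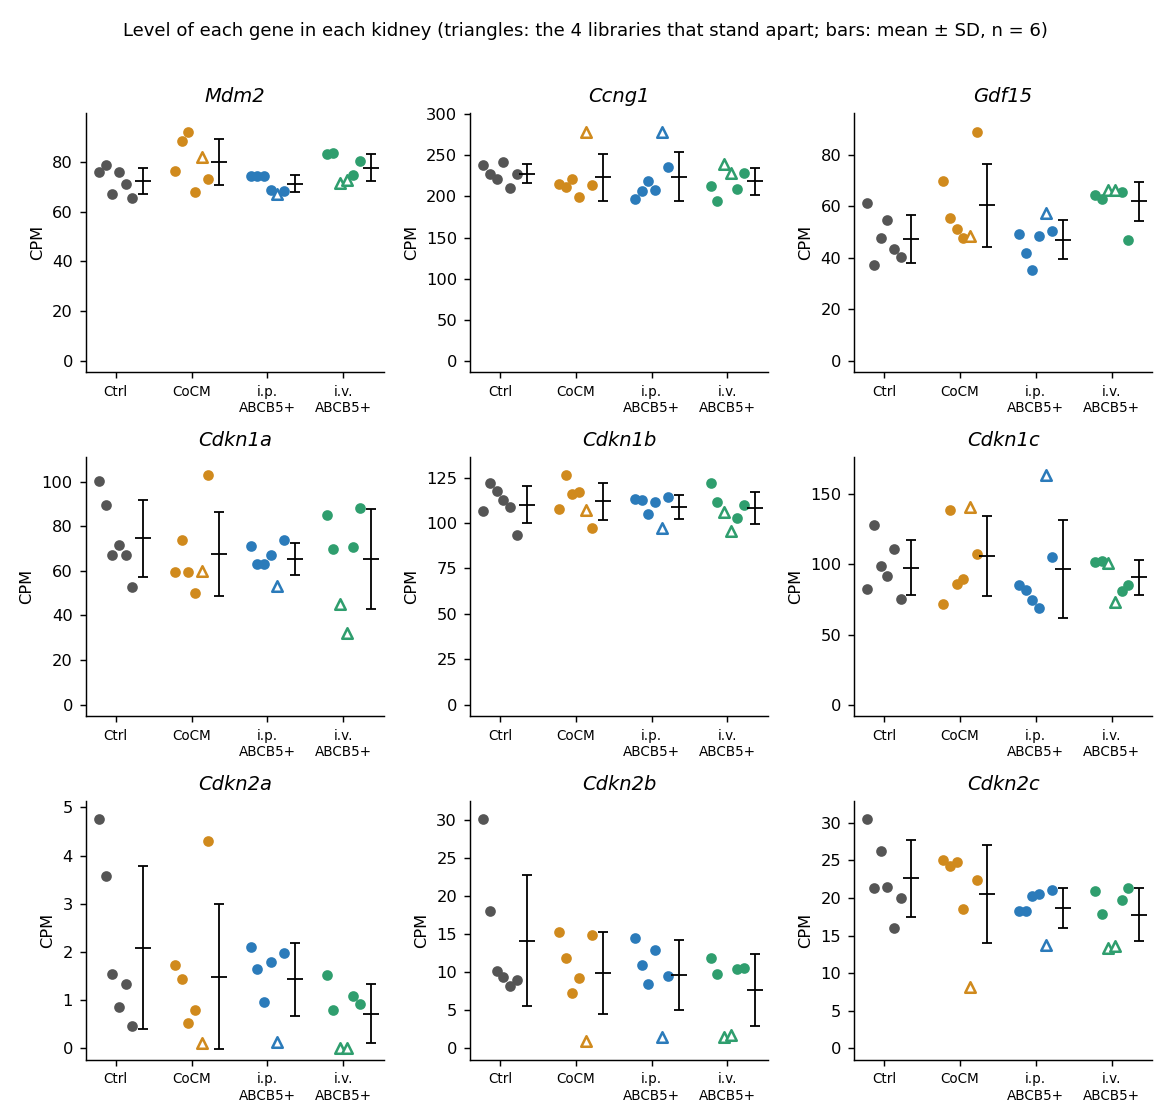
CPM of each of the 9 genes in each kidney by group, with circles and triangles for animals and bars for the mean ± SD of 6. Triangles are the 4 libraries that stood apart, and 5 of the 6 i.v. ABCB5+ animals lie above the highest Ctrl animal for Gdf15 on this scale. In TPM animal 37, drawn as a triangle, was below that Ctrl animal.

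Among the p53 targets, Gdf15, a secreted factor of the TGF-beta family that rises with tissue stress and reduces appetite through the brainstem, was the member with the smallest unadjusted p in the comparisons of CoCM and i.v. ABCB5+ with Ctrl. Its level in Ctrl kidneys was 61.3, 37.1, 47.5, 54.5, 43.2 and 40.1 CPM in animals 1, 12, 18, 22, 23 and 24. In i.v. ABCB5+ kidneys it was 64.3, 62.6, 66.3, 66.5, 65.4 and 46.8 CPM in animals 28, 33, 36, 37, 42 and 43. All 6 i.v. ABCB5+ animals were above the Ctrl median and 5 were above the highest Ctrl animal, while animal 43 lay within the Ctrl range. This count depended on the scale. The library scaling factors (TMM) of animals 36 and 37 were 0.852 and 0.810, against 1.01 in Ctrl animal 1. In TPM, animal 37 at 95.2 was also below Ctrl animal 1 at 103. In CoCM kidneys Gdf15 was 69.8, 55.6, 51.2, 47.5, 48.5 and 88.9 CPM in animals 26, 27, 34, 35, 39 and 40, so that 6 of 6 were above the Ctrl median and 2 above the Ctrl range. The i.p. ABCB5+ kidneys, at 49.3, 41.9, 35.1, 48.3, 57.2 and 50.4 CPM in animals 29, 30, 31, 32, 38 and 41, overlapped Ctrl, with animal 31 alone below the Ctrl range.

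Fitted Gdf15 differences on the log2 scale were 0.39 ± 0.15 (SE) with i.v. ABCB5+ against Ctrl (95% interval 0.070 to 0.71, edgeR adjusted p = 0.673) and 0.35 ± 0.15 with CoCM against Ctrl (0.030 to 0.67, edgeR adjusted p = 0.395). The unadjusted p was 0.0192 for i.v. ABCB5+ and 0.0333 for CoCM, in comparisons where 4.44% and 5.96% of genes were higher at an unadjusted p under 0.05. For i.p. ABCB5+ against Ctrl the difference was -0.0095 ± 0.15 (edgeR adjusted p = 0.998), and i.p. was 0.40 lower than i.v. ABCB5+ (log2 difference -0.40 ± 0.15, interval -0.72 to -0.079, unadjusted p = 0.0168, edgeR adjusted p = 0.9999), where 1.46% of genes were lower at an unadjusted p under 0.05. Without the 4 libraries that stood apart, the difference was 0.33 ± 0.17 with i.v. ABCB5+ (edgeR unadjusted p = 0.0651, adjusted p = 0.99998). It was 0.40 ± 0.16 with CoCM (edgeR unadjusted p = 0.0232, adjusted p = 0.246) and -0.40 ± 0.18 between the routes (edgeR unadjusted p = 0.0366, adjusted p = 0.9999). With limma voom and sample weights on all libraries it was 0.25 ± 0.15 with CoCM (voom unadjusted p = 0.104). The voom values were 0.35 ± 0.14 with i.v. ABCB5+ (unadjusted p = 0.0215, adjusted p = 0.784) and -0.55 ± 0.14 between the routes (5.54e-04, adjusted p = 0.472). DESeq2 gave 0.34 ± 0.17 with CoCM, 0.38 ± 0.17 with i.v. ABCB5+ and -0.41 ± 0.17 between the routes. In the 4 libraries Gdf15 was at 48.5 to 66.5 CPM, inside the 35.1 to 88.9 CPM of the other 20 and with a median 1.24 times theirs, while the sum of injured tubule markers there was lower than in any other library.

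Mdm2, the negative regulator of p53, varied little between animals. Ctrl kidneys lay between 65.5 and 78.6 CPM with a median of 73.5 CPM, and i.p. ABCB5+ kidneys between 67.1 and 74.3 CPM. Of the CoCM animals, 27, 34 and 39 were above the highest Ctrl animal, at 88.6, 92.2 and 82.0 CPM, and of the i.v. ABCB5+ animals 28, 33 and 43, at 83.1, 83.8 and 80.6 CPM. The log2 difference from Ctrl was 0.14 ± 0.071 with CoCM (edgeR adjusted p = 0.427), 0.10 ± 0.071 with i.v. ABCB5+ (0.683) and -0.025 ± 0.072 with i.p. ABCB5+ (0.978). These differences were 0.13 ± 0.074, 0.15 ± 0.078 and -0.0037 ± 0.074 without the 4 libraries. The standard deviation of Mdm2 within groups, 0.12 on the log2 CPM scale, was lower than that of all but 6.64% of genes tested, and the median gene had 0.30.

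Cdkn1a, the p53 target that halts the cycle at the G1 phase, was lower than Ctrl on average in each treated group, but within the spread of the animals. Ctrl kidneys had 100, 89.4, 67.0, 71.8, 66.9 and 52.7 CPM in animals 1, 12, 18, 22, 23 and 24. CoCM kidneys ranged from 50.2 to 103 CPM, i.p. ABCB5+ kidneys from 53.3 to 74.0 CPM and i.v. ABCB5+ kidneys from 32.3 to 88.4 CPM. The low end of the i.v. group was set by the 2 libraries that stood apart, animals 36 and 37, at 45.0 and 32.3 CPM, and the other 4 animals of that group had 69.9 to 88.4 CPM. The log2 differences were -0.14 ± 0.21 with CoCM (edgeR adjusted p = 0.752), -0.19 ± 0.21 with i.p. ABCB5+ (0.978) and -0.19 ± 0.21 with i.v. ABCB5+ (0.735). Without the 4 libraries, the differences were -0.12 ± 0.17 with CoCM and -0.14 ± 0.17 with i.p. ABCB5+, and that with i.v. ABCB5+ was 0.073 ± 0.18, so its sign rested on animals 36 and 37.

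Ccng1 encodes cyclin G1, a p53 target that works with phosphatase 2A on Mdm2. It was the most even of the 9 genes outside the 4 libraries, with a within-group standard deviation of 0.082 on the log2 CPM scale (percentile 2.86 of all genes). Ctrl kidneys had 210 to 243 CPM. CoCM animal 39 and i.p. ABCB5+ animal 38, both among the 4 libraries, had 279 CPM each and were the highest of all 24 on this scale. The other animals of their groups had 199 to 221 CPM and 197 to 236 CPM. In TPM these 2 animals had 104.8 and 99.8, below Ctrl animal 12 at 107.7. The differences from Ctrl were -0.029 ± 0.087 with CoCM, -0.023 ± 0.087 with i.p. and -0.059 ± 0.087 with i.v. ABCB5+ on the log2 scale, and the lowest edgeR adjusted p of the 3 was 0.804. They were -0.11 ± 0.059, -0.091 ± 0.059 and -0.11 ± 0.063 without the 4 libraries, with unadjusted p of 0.072, 0.142 and 0.0871 (edgeR). Ccng1 and Cdkn1a, which share the p53 element upstream, had a Pearson r of 0.32 (Spearman 0.35) over the other 20 libraries, and 0.25 after leaving out the 2 libraries farthest from the median of Cdkn1a.

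**Figure D3:**
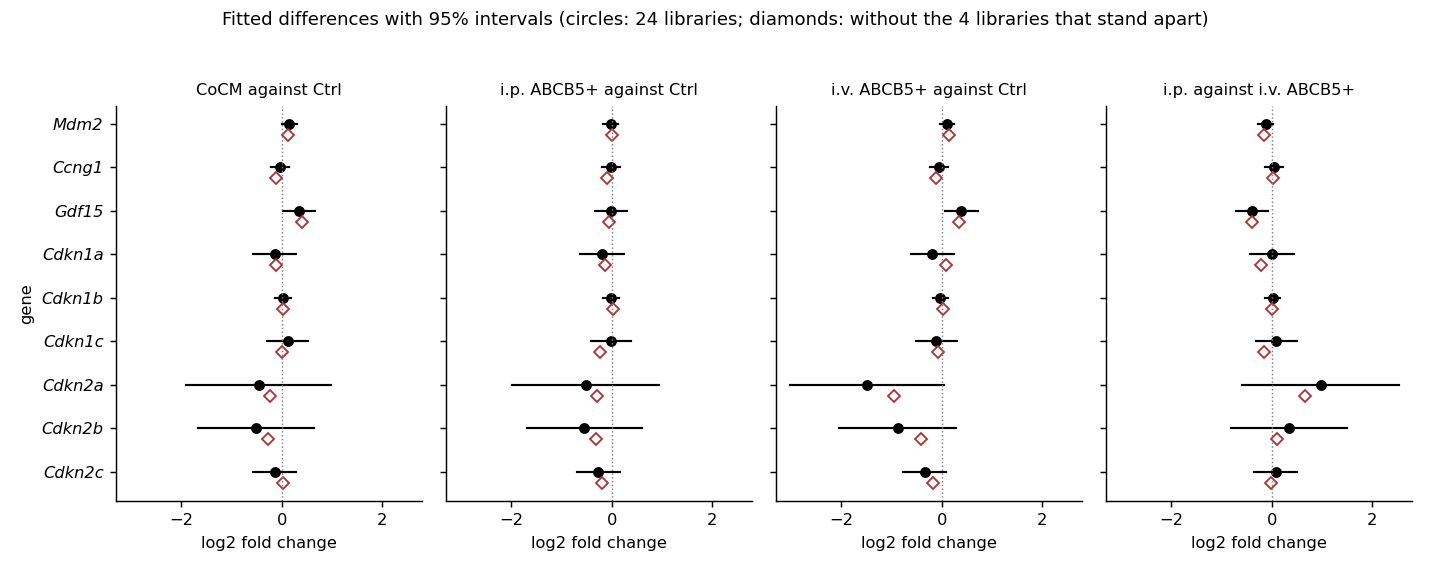
Fitted log2 fold change of each gene with its 95% interval in 4 comparisons, for all 24 libraries (circles) and, as a value alone, without the 4 libraries that stood apart (diamonds). The intervals of Gdf15 leave out 0 with CoCM and i.v. ABCB5+ against Ctrl and in i.p. against i.v. ABCB5+, and those of the other 8 genes include it.

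Of the other Cip/Kip inhibitors, Cdkn1b keeps resting cells out of the cycle and Cdkn1c is an imprinted gene that marks mature podocytes in the kidney. Cdkn1b ranged only from 93.5 to 126 CPM over all 24 kidneys, with group means of 110 ± 9.96 CPM in Ctrl, 112 ± 9.97 with CoCM, 109 ± 6.66 with i.p. and 108 ± 8.82 with i.v. ABCB5+ (SD, n = 6). The 95% interval of its log2 difference from Ctrl was -0.13 to 0.17 with CoCM and -0.18 to 0.12 with i.v. ABCB5+. Its differences without the 4 libraries were 0.025 ± 0.076 with CoCM, 0.020 ± 0.076 with i.p. and 0.015 ± 0.081 with i.v. ABCB5+. Cdkn1c was more variable, at 75.0 to 128 CPM in Ctrl, 72.0 to 141 with CoCM, 68.8 to 164 with i.p. and 73.0 to 103 with i.v. ABCB5+. Its highest value, 164 CPM, came from i.p. ABCB5+ animal 38 and the next, 141 CPM, from CoCM animal 39, whose podocyte marker sums, 1357 and 1274 CPM, were also the highest of all 24. In TPM these animals had 102.7 and 93.2 for Cdkn1c, below Ctrl animal 12 at 106.5. Over the other 20 libraries Cdkn1c had a Pearson r of 0.64 (Spearman 0.68) with the summed podocyte markers, 0.72 (0.73) with adrenal markers, whose sum was only 12.4 to 30.1 CPM there, 0.60 (0.54) with intercalated cell markers and -0.55 (-0.50) with late proximal tubule markers. The log2 difference from Ctrl was 0.11 ± 0.20 with CoCM, -0.019 ± 0.20 with i.p. and -0.11 ± 0.20 with i.v. ABCB5+. It was 0.010 ± 0.16, -0.23 ± 0.16 and -0.081 ± 0.17 without the 4 libraries. The part of cell content in these values was not tested.

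Of the INK4 genes, Cdkn2a and Cdkn2b were the most variable members, with within-group standard deviations of 1.31 and 1.21 on the log2 CPM scale, and 0.85 and 0.50 without the 4 libraries. That of Cdkn2c was 0.40, and 0.21 without the 4 libraries, where Cdkn1a had 0.29. For every member the ratio of count to TPM was nearly the same in all libraries, so each was quantified over a fixed length and the p16 and ARF transcripts of Cdkn2a cannot be told apart. Cdkn2a was near the floor, and its estimated counts in Ctrl were 68, 54, 21, 12, 15 and 6 in animals 1, 12, 18, 22, 23 and 24. The CoCM kidneys had 23, 19, 6, 9, 1 and 59 counts in animals 26, 27, 34, 35, 39 and 40. The i.p. ABCB5+ kidneys had 30, 22, 12, 25, 1 and 20 in animals 29, 30, 31, 32, 38 and 41, and the i.v. ABCB5+ kidneys 22, 11, 0, 0, 13 and 12 in animals 28, 33, 36, 37, 42 and 43. Counts of 0 and 1, at or under the floor of 3, occurred only in the 4 libraries that stood apart. In Ctrl alone the coefficient of variation of Cdkn2a was 81.3%, beside 18.5% from counting error, and each of the other 8 members also varied by more than its counting error.

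The log2 difference of Cdkn2a from Ctrl was -1.49 ± 0.74 with i.v. ABCB5+ (95% interval -3.02 to 0.037, edgeR adjusted p = 0.673), -0.46 ± 0.70 with CoCM (0.757) and -0.52 ± 0.70 with i.p. ABCB5+ (0.978). With DESeq2 the i.v. value was -1.53 ± 0.77 and with limma voom and sample weights -0.79 ± 0.57. Without the 4 libraries it was -0.95 ± 0.58 (edgeR adjusted p = 0.99998), with -0.24 ± 0.52 for CoCM and -0.30 ± 0.52 for i.p. ABCB5+, and the remaining 4 i.v. ABCB5+ animals, at 0.791 to 1.52 CPM, lay inside the Ctrl range of 0.463 to 4.76 CPM. The difference of i.p. against i.v. ABCB5+ had an interval of -0.59 to 2.52, so a several-fold difference in this gene would not have been detectable.

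Cdkn2b, which is induced by TGF-beta in epithelial cells, followed Cdkn2a. Ctrl kidneys had 30.2, 18.1, 10.2, 9.38, 8.26 and 8.94 CPM in animals 1, 12, 18, 22, 23 and 24, with animals 1 and 12 highest as for Cdkn2a. The 4 libraries that stood apart had 0.910 to 1.77 CPM, and the other 14 treated kidneys 7.24 to 15.3 CPM. The log2 difference from Ctrl was -0.88 ± 0.56 with i.v. ABCB5+ (edgeR adjusted p = 0.673), -0.51 ± 0.55 with CoCM (0.662) and -0.55 ± 0.55 with i.p. ABCB5+ (0.978). Without the 4 libraries these differences were -0.41 ± 0.32, -0.28 ± 0.30 and -0.32 ± 0.30. The estimated counts of Cdkn2b were fractional in all 24 libraries and those of Cdkn1c in 10, as happens where reads are divided between features that share sequence, and their values are uncertain to that extent.

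Cdkn2c, the INK4 inhibitor p18, was at 30.5, 21.4, 26.2, 21.5, 15.98 and 20.04 CPM in the Ctrl animals in the same order. All 6 i.p. ABCB5+ and all 6 i.v. ABCB5+ animals were below the Ctrl median of 21.4 CPM, at 13.8 to 21.02 CPM and 13.4 to 21.3 CPM, and the groups overlapped. The log2 difference was -0.27 ± 0.21 with i.p. ABCB5+ (edgeR adjusted p = 0.978), -0.34 ± 0.21 with i.v. ABCB5+ (0.673) and -0.14 ± 0.21 with CoCM (0.756). Without the 4 libraries it was -0.19 ± 0.13 with i.p. and -0.18 ± 0.13 with i.v. ABCB5+, and 0.015 ± 0.13 with CoCM.

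Cdkn2a, Cdkn2b and Cdkn2c were each lower in all 4 of the libraries that stood apart than in any of the other 20. For Cdkn2c the ranges were 8.19 to 13.8 CPM and 15.98 to 30.5 CPM. Of all genes tested, 1812 (14.2%) were likewise lower in all 4, and 1281 (10.02%) were higher in all 4, which no member was. The remaining 6 members overlapped, with Mdm2 at 67.1 to 82.0 CPM in the 4 libraries and Cdkn1b at 95.8 to 107 CPM. S and M phase genes were also lower there, with a sum of 255 to 280 CPM against 335 to 542 CPM, as were myofibroblast markers at 536 to 675 CPM against 881 to 3526 CPM, whereas early proximal tubule markers were higher at 5576 to 9852 CPM against 1480 to 5300 CPM. The part of these cell types in the INK4 values was not tested.

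Over the other 20 libraries, Cdkn2a and Cdkn2b varied together between animals. Of the 36 pairs of members this had the highest correlation of log2 CPM, with a Pearson r of 0.84 (Spearman 0.81), and r was 0.80 after leaving out the 2 libraries farthest from the median of the first gene. Cdkn1a and Cdkn2a had 0.73 (Spearman 0.59), which fell to 0.54 after the same step, and Cdkn1a and Cdkn2b had 0.64 (0.58), which fell to 0.45. The kidneys of Ctrl animals 1 and 12 and CoCM animal 40 were high in all 3 genes. Within the p53 targets, Mdm2 and Cdkn1a had 0.28 (0.34), which became 0.53 after the same step, and Cdkn1a and Gdf15 0.41 (0.33), which became 0.11. These values describe animals of 4 groups that share tissue make-up and depth, and are given without a test. Genes counted in the same library are not independent measurements.

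**Figure D4:**
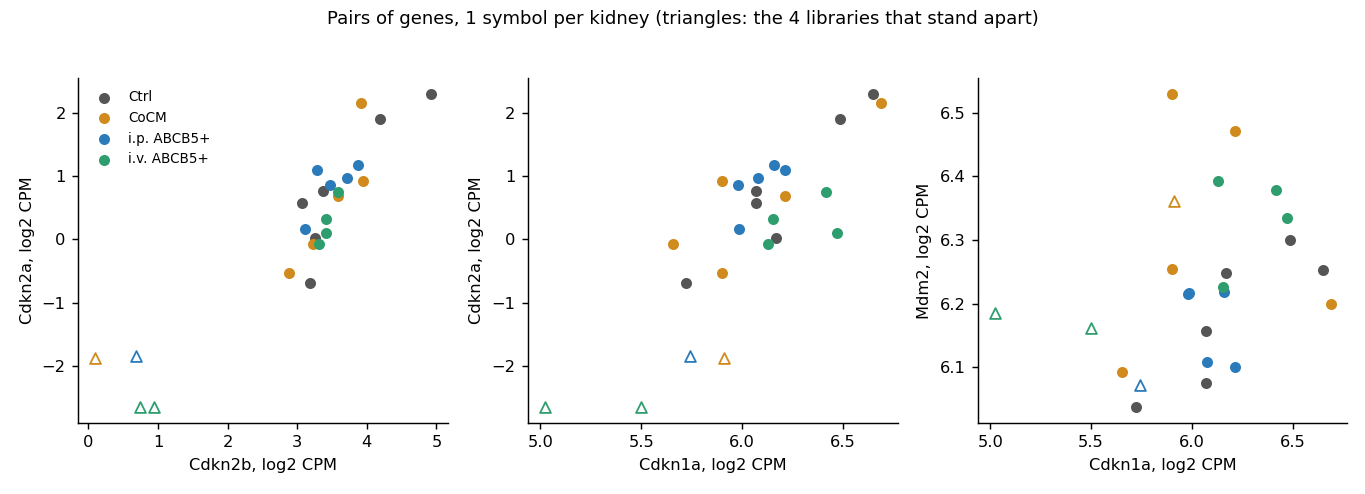
Log2 CPM of 3 pairs of genes, with 1 symbol per kidney coloured by group and triangles for the 4 libraries that stood apart. Circles of Cdkn2a and Cdkn2b lie along a line (Pearson r 0.84 over 20 libraries), and those of Mdm2 and Cdkn1a lie less closely along one (0.28, and 0.53 without the 2 libraries farthest from the median of Mdm2).

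Across the same 20 libraries Cdkn2a and Cdkn2b were also related to tissue markers. Cdkn2b had a Pearson r of 0.79 (Spearman 0.82) with the sum of S and M phase genes, Cdkn2a had 0.70 (0.65), and both had 0.77 (0.68 for Cdkn2a, 0.69 for Cdkn2b) with myofibroblast markers. Cdkn2a was inversely related to early proximal tubule markers, at -0.81 (-0.78). Cdkn1a had 0.83 (0.71) with the sum of other p53 target genes and 0.80 (0.80) with the sum of secretory phenotype factors, and among tissue markers 0.74 (0.66) with myofibroblast, 0.65 (0.52) with macrophage, -0.74 (-0.63) with thick ascending limb and -0.68 (-0.64) with late proximal tubule markers. Gdf15 had 0.65 (0.59) with the other p53 targets and 0.50 (0.55) with injured tubule markers, whereas Ccng1 had 0.16 (0.16) with the other p53 targets and Mdm2 0.21 (0.38).

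The genes most like each member were ranked by Spearman rho over these 20 libraries among 11819 genes above a minimum level (11820 for Cdkn2a). Cdkn1c was nearest to Clic3 (0.95), Tnnc1 (0.88) and Asic1 (0.87). Cdkn2a was nearest to Tcf7l1 (0.91), a transcription factor of the Wnt pathway, then to Gnai2 (0.86) and Tmeff2 (0.84). Cdkn2b was nearest to the actin regulators Fscn1 (0.88) and Arpc1b (0.87) and to Impdh1 (0.87), and Cdkn1a to Kctd10 (0.89), Cdc42ep4 (0.87) and Lix1l (0.86). Gdf15 was nearest to Sfnl1 (0.86), to Tnfrsf12a (0.84), the receptor of the cytokine TWEAK, and to Pdlim7 (0.81). Cdkn2c was nearest to Naca (0.86), Llph (0.85) and Eif3m (0.85). The best matches were lower for the evenly expressed members, with Pde7a (0.83), Lilrb4 (0.77) and Srsf7 (0.75) for Mdm2, Echdc1 (0.80), Lrmda (0.78) and Sumf1 (0.76) for Ccng1 and Olr59 (0.68), Chac2 (0.65) and Nr1d1 (0.65) for Cdkn1b.

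Genes around the members were examined in 6 lists. In all 6 lists and all 5 comparisons, 0 genes passed the edgeR adjusted p of 0.05, beside 0.00783% of all genes in CoCM against Ctrl and 0% in the others. At an unadjusted p under 0.05 a list had 0 to 3 genes in any comparison, beside 11.9%, 1.77%, 5.78%, 2.14% and 7% of all genes in the 5 comparisons in the order above. The counts of 3 came from the p53 targets, with 3 of 29 lower with i.v. ABCB5+ against Ctrl and 3 of 29 lower in i.p. than i.v. ABCB5+. The shares of all genes just given are of either direction. With i.v. ABCB5+ against Ctrl, 4.44% of all genes were higher within the 5.78%. Only the remainder were lower, which is the direction of the 3 targets. Between the routes, 1.46% were lower within the 2.14%. Of the regulators of p53, 14 of 19 were tested, and their median log2 difference was -0.0071 with CoCM, -0.051 with i.p. and -0.049 with i.v. ABCB5+. The 29 of 30 other p53 targets tested had medians of -0.087, -0.083 and -0.044. Over all genes the medians were 0.0088, 0.0037 and 0.013. The medians without the 4 libraries, in the same order, were 0.010, -0.0097 and -0.024 for the regulators, -0.047, -0.062 and -0.0097 for the p53 targets and -0.0044, 0.00016 and -0.0043 for all genes. The gene with the smallest p of the p53 targets in CoCM was Zmat3, an RNA-binding p53 effector, at -0.24 ± 0.086 (edgeR adjusted p = 0.338). In i.p. ABCB5+ it was the DNA repair gene Xpc at -0.16 ± 0.081, and in i.v. ABCB5+ the sulfatase gene Sulf2 at -0.27 ± 0.13. Among the regulators the p53 relative Tp63 had the smallest p in CoCM, at -1.36 ± 0.65, but its level was only 0.114 to 4.34 CPM. In i.p. ABCB5+ it was the checkpoint kinase gene Chek1 at -0.16 ± 0.17, and in i.v. ABCB5+ Tp63 again at -0.80 ± 0.62.

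Downstream of the inhibitors, 19 of 23 genes of the G1 cyclins, CDKs, RB and E2F factors were tested and had medians of -0.053 with CoCM, -0.068 with i.p. and -0.069 with i.v. ABCB5+. Ccnd2, the cyclin D2 gene, had the smallest p in CoCM, at -0.86 ± 0.31 (edgeR adjusted p = 0.352), as did Ccnd3, the cyclin D3 gene, with i.p. at 0.13 ± 0.094 and Skp2, whose product targets p27 for destruction, with i.v. ABCB5+ at -0.28 ± 0.18. The medians were 0.0063, -0.029 and -0.019 without the 4 libraries. All 22 genes of S and M phase were tested, with medians of -0.10, -0.19 and -0.30. The 4 libraries, all in treated groups, were lower in the sum of this list, and the medians without them were 0.027, -0.047 and -0.018. Ccnb1, which encodes cyclin B1 and drives entry into mitosis, had the smallest p of this list in each treated group and lay in the other direction, at 0.63 ± 0.19 with CoCM (edgeR adjusted p = 0.255), 0.30 ± 0.19 with i.p. and 0.45 ± 0.19 with i.v. ABCB5+. Its level was 25.2 to 42.8 CPM in the 4 libraries that stood apart and 14.3 to 29.7 CPM in the other 20.

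Secretory phenotype factors had medians of -0.19 with CoCM, -0.29 with i.p. and -0.28 with i.v. ABCB5+, with 26 of 33 genes tested. When the 4 libraries were left out these medians were 0.014, -0.13 and 0.046, so that the sign with CoCM and i.v. ABCB5+ turned. In that list Hgf, the hepatocyte growth factor gene, was at -1.07 ± 0.46 with CoCM (edgeR adjusted p = 0.389), Csf1, which encodes a macrophage growth factor, at -0.31 ± 0.19 with i.p. and Areg, which encodes a ligand of the EGF receptor, at 0.73 ± 0.37 with i.v. ABCB5+. The last list held Polycomb genes that silence the INK4 locus, other regulators of it, and Glb1, whose beta-galactosidase is used to stain senescent cells. Its 12 tested genes of 13 had medians of -0.068, -0.032 and -0.038, and -0.057, -0.021 and 0.061 without the 4 libraries. Their smallest p came from Ets2 with CoCM at -0.26 ± 0.14, the Polycomb methyltransferase gene Ezh2 with i.p. at -0.15 ± 0.14 and its partner Eed in i.v. ABCB5+ at -0.10 ± 0.082. The summed secretory factors were at 4163 to 4585 CPM in the 4 libraries that stood apart and 4239 to 6282 CPM in the other 20. This sum is weighted to the most abundant genes of the list. Genes of the list that were lower in all 4 than in any other library included Angptl4, Ccl2, Ccl7, Ccl20, Csf1, Cxcl1 and Icam1. The rest of them were Il1b, Mmp12, Plaur, Tgfb1, Timp1, Timp2 and Tnf, of the 26 tested. Over all genes tested, 14.2% were lower in this way. The part of these libraries and of the cell types given above in these medians was not tested.

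**Figure D5:**
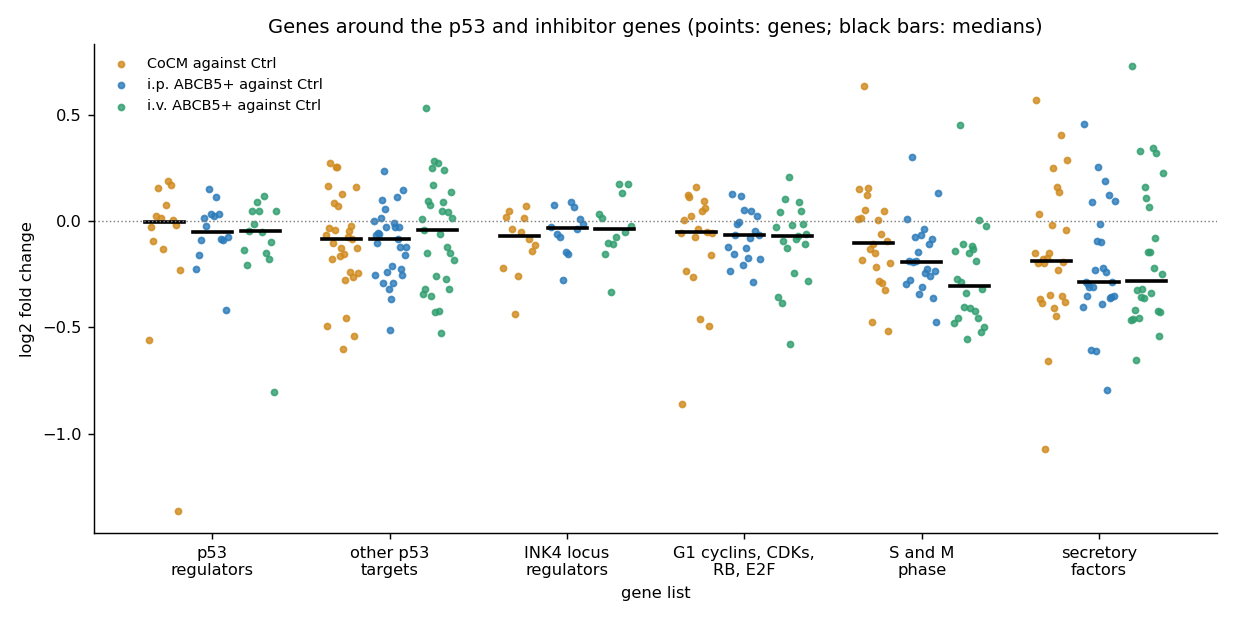
Fitted log2 fold change of every tested gene of 6 lists against Ctrl in the 3 treated groups, with points for genes and black bars for medians. The bars of the S and M phase list lie at -0.10, -0.19 and -0.30 with all 24 libraries, and at 0.027, -0.047 and -0.018 without the 4 that stood apart, which is not drawn. No gene passed the adjusted threshold.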

How the data were processed

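RNA from the left kidney of 24 rats was sequenced on a BGI instrument. For each animal the authors deposited estimated counts per Entrez gene, not normalized, and TPM values scaled to transcript length and library total. The submitters' processing notes name Trim Galore 0.6.4, kallisto 0.4.6 and the rat build rn6, while the paper cites human (hg19) gene models and DESeq2. Symbols came from the RefSeq table of GRCr8, in which 17179 of 17334 identifiers were found.

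Groups were taken from the sample labels, and the animal number was used as the replicate name. Estimated counts were rounded, filtered with filterByExpr by group (12778 genes kept), scaled by TMM and fitted over all 24 samples with a mean for each group in edgeR 4.0.16 (R 4.3.3). The quasi-likelihood F-test was used, with Benjamini-Hochberg adjustment over all genes and a threshold of 0.05. The study names DESeq2, which was run as an alternative (version 1.42.0). Standard errors were derived from the log2 difference and its F statistic. The fitting script was tested on simulated data. CPM values were scaled by TMM library sizes, and log2 CPM used a prior count of 2. TPM was used to compare genes, with a pseudocount of 1 in the plot. Totals of 9304601 to 14125442 counts limit low genes, and floors cover counting error only.

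Named genes were the 9 members, for each list the gene with the smallest p in each comparison with Ctrl (none passed the adjusted threshold), and the 3 genes nearest to each member by Spearman rho over the 20 libraries that did not stand apart, among genes with an average log2 CPM above 1. A gene of the lists is not reported by itself here, and Gtse1, Ovca2 and the secretory factors lower in all 4 libraries were named outside this rule. Lists were described by counts and medians, and correlations were given without a test. The members, lists and the 4 libraries that stood apart were chosen with earlier results of these data known. Alternatives were DESeq2 size factors in edgeR, DESeq2, other count filters (none, or 10 counts in every sample), only the groups compared, leaving out the 4 libraries, limma 3.58.1 (voom with sample weights), log2(TPM + 1) and log2(TPM + 0.1), and leaving out each animal. List medians without the 4 libraries were added after seeing the data. Motifs were searched in the 250 bases before each RefSeq start.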

Additional observations from a re-analysis of the deposited data

Results flagged for a closer look

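In groups of 6, a sample was marked when its gap to the nearest other exceeded the share of the group's range set by Dixon's test at 95%. Of 44 groups examined over the 9 genes, the library totals and the first principal component, 5 gave such a sample, where chance gives about 2.2 in independent groups. These groups share animals, and CoCM animal 39 and i.p. ABCB5+ animal 38 had already been set apart by their component scores. The 2 counts therefore do not measure an excess. Gdf15 in i.v. ABCB5+ animal 43 was 46.78 CPM, with the other 5 animals at 62.6 to 66.5 CPM. In CPM, though not in TPM, this was the only animal of its group within the Ctrl range. Ccng1 in CoCM animal 39 was 278.9 CPM, with the others at 199 to 221 CPM. The score of that animal on the first principal component was 97.42, with the others at -45.1 to 7.55, and the score of i.p. ABCB5+ animal 38 was 80.83, with the others at -36.1 to 3.31. The total count of Ctrl animal 23 was 1.041e+07, with the other Ctrl animals at 13320800 to 14125400. Leaving out Ctrl animal 23 raised the number of genes called in CoCM against Ctrl from 1 to 31, none of them a member.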

How the results depend on the processing

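No member passed an adjusted p of 0.05 under any alternative, with a lowest value of 0.246 over the alternatives and 0.291 when leaving out 1 animal. Of 395 member values under the alternatives, 373 kept their direction, and of 1080 with 1 animal left out, 1039 did. The number of genes called in CoCM against Ctrl was 1, and it was 79 with DESeq2, 183 with limma voom and sample weights, and 0 with only the groups compared, without the 4 libraries that stood apart, with log2(TPM + 1) and with log2(TPM + 0.1). It ranged from 0 to 31 when leaving out 1 animal, with 31 without Ctrl 23, 2 without i.v. ABCB5+ 37 and 0 without CoCM 26, 27 or 39 or Ctrl 12, 18, 22 or 24. DESeq2 called 1 gene for i.p. and 1 for i.v. ABCB5+ against Ctrl, 2 between the routes and 3 in CoCM against the cell groups, where voom called 2. The cause of these differences was not tested.

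The reversed signs were of small differences that passed no threshold. Without the 4 libraries the log2 differences were 0.073 for Cdkn1a, i.v. ABCB5+ against Ctrl, -0.084 for Cdkn1a, CoCM against the cell groups, 0.020 and 0.015 for Cdkn1b, i.p. then i.v. ABCB5+ against Ctrl, -0.15 for Cdkn1c and -0.012 for Cdkn2c between the routes, 0.015 for Cdkn2c, CoCM against Ctrl, and -0.011 for Ccng1, CoCM against the cell groups. With voom they were -0.12 for Cdkn1a, CoCM against the cell groups, and -0.012 for Cdkn1b and -0.23 for Cdkn1c between the routes. Cdkn1a between the routes was 0.0040 with no count filter, 0.00062 with at least 10 counts in every sample, 0.0047 with only the groups compared, and 0.096 and 0.10 with the TPM scales (pseudocounts 1 and 0.1). With log2(TPM + 1) and log2(TPM + 0.1), which moved the median of all genes in CoCM by -0.097 and -0.11, Cdkn1b was -0.084 and -0.085 and Cdkn1c -0.010 and -0.010 in CoCM against Ctrl, and Ccng1 was -0.024 and -0.025 in CoCM against the cell groups. Relative to those shifts Cdkn1b and Cdkn1c were not lower.

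Leaving out 1 animal gave ranges that crossed 0 for Ccng1 from -0.10 to 0.0015 in CoCM against Ctrl, -0.028 to 0.068 between the routes and -0.054 to 0.046 in CoCM against the cell groups. For Cdkn1a they were -0.14 to 0.11 between the routes and -0.11 to 0.12 in CoCM against the cell groups. For Cdkn1b they were -0.038 to 0.060 with CoCM, -0.065 to 0.016 with i.p. and -0.084 to 0.0028 with i.v. ABCB5+ against Ctrl, -0.019 to 0.060 between the routes and -0.0060 to 0.081 in CoCM against the cell groups. For Cdkn1c they were -0.0047 to 0.21 in CoCM and -0.23 to 0.074 in i.p. ABCB5+ against Ctrl, and -0.12 to 0.17 between the routes. They were -0.22 to 0.024 for Cdkn2c in CoCM against Ctrl, -0.13 to 0.77 for Cdkn2a in CoCM against the cell groups and -0.074 to 0.079 for Gdf15 in i.p. ABCB5+ against Ctrl. List medians without the 4 libraries, chosen after seeing the data, are given with the lists. No paired analysis was possible because no animal number occurs in more than 1 group. Depth limits Cdkn2a, whose counts were at most 68 in a library.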
